A study of Homo sapiens with 6 samples.

Results

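The metallothionein and zinc transport genes examined here were 10 named genes, taken by gene name from a gene expression table of 58735 genes. They comprised the metallothioneins MT2A, MT1E, MT1F, MT1X, MT1G and MT1M, the transcription factor MTF1, the zinc exporter SLC30A1 and the zinc importers SLC39A8 and SLC39A14. RNA-seq had been carried out in U251 cells, a long-established line derived from a human glioblastoma. The NC group (n = 3) received sterile deionized water and the TNF-α group (n = 3) received 10 ng/mL of recombinant human tumor necrosis factor-α, an inflammatory cytokine, both for 24 h. The labels describe the replicates of this single cell line as independent and biological. The values are FPKM, fragments scaled by gene length and a library size set for each library, as deposited by the authors.

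Metallothioneins are small, cysteine-rich proteins that bind zinc and copper in the cytosol. When free zinc rises, MTF1 binds metal response elements in the promoters of the metallothionein genes and of SLC30A1, which carries zinc out of the cell. SLC39A8 (ZIP8) and SLC39A14 (ZIP14) bring zinc, iron and manganese into the cell, and both are known to respond to inflammatory cytokines in several tissues.

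The 6 metallothionein genes lie close together on chromosome 16 (GRCh38, GENCODE release 29). MT2A (ENSG00000125148) spans 56608199 to 56609497 on the plus strand, MT1E (ENSG00000169715) 56625475 to 56627112, MT1M (ENSG00000205364) 56632233 to 56633986, MT1F (ENSG00000198417) 56657694 to 56660698 and MT1X (ENSG00000187193) 56682424 to 56684196, all on the plus strand. MT1G (ENSG00000125144), at 56666731 to 56668065, is on the minus strand. MTF1 (ENSG00000188786) and SLC30A1 (ENSG00000170385) are both on the minus strand of chromosome 1, at 37809567 to 37859620 and 211571568 to 211578742. SLC39A8 (ENSG00000138821) is on the minus strand of chromosome 4, at 102251041 to 102431258. The metallothionein genes are short, with 750 to 1889 bases of merged exon, whereas MTF1 and the transporters have 5474 to 8024 bases. The median of all tested genes was 4638 bases.

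The promoter sequences below are shown because the metal response element is the site through which these genes are known to answer zinc. The core of the element was searched as TGCACNC or TGCGCNC on both strands in the 250 bases before each start site, in promoter windows from RefSeq (GRCh38.p14). Windows were matched for 5 of the 10 genes, namely MT2A, MT1X, SLC30A1, MTF1 and SLC39A8. MT1E, MT1F, MT1G and MT1M had no window, and SLC39A14 was not searched. The core occurred 7 times upstream of MT2A, 4 times upstream of MT1X and once upstream of SLC30A1. Upstream here refers to the RefSeq start, and the windows of MT2A and SLC39A8 lie within the gene spans given above. The window of SLC30A1, at 211579112 to 211579411, lies wholly outside and upstream of the span given for that gene. No match was found upstream of MTF1, and SLC39A8 had 1 match in 1 of its 3 windows. Of all 35116 windows, 24.8% held at least 1 match and 0.370% held at least 4. An NF-kB motif was found in none of the windows of these genes and in 3.85% of all windows. A match of these letters is a description and not evidence of binding. Capitals mark the matches, and each sequence is written along the strand of its gene. For MT1X the stretch is chr16:56682220-56682423, plus strand, and for SLC30A1 it is chr1:211579162-211579281, minus strand. For MT2A 3 stretches of 30 bases are given, at chr16:56608424-56608453, chr16:56608482-56608511 and chr16:56608515-56608544, plus strand. They do not hold all 7 matches of MT2A.
MT1X: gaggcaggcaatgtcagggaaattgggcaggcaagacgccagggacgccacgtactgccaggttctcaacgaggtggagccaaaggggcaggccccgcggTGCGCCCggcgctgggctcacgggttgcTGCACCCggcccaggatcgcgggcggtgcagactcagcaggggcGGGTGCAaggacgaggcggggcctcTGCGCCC
SLC30A1: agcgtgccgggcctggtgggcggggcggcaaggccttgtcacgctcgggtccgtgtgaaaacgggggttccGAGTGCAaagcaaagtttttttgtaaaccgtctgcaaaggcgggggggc
MT2A, first stretch: agccgggTGCGCCCggcccagTGCGCGCgg
MT2A, second stretch: actcagcgcggggcGTGTGCAggcagcgcc
MT2A, last stretch: ccggggcggggctttTGCACTCgtcccggc

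The libraries held 31992167 to 37897044 reads in genes, and the 3 TNF-α libraries were not alike. The library size behind the FPKM was 0.693 and 0.759 of the reads in genes in TNF-α replicates 2 and 3. In the other 4 libraries it was 0.925 to 0.959 of them. The same share of reads therefore has a higher FPKM in TNF-α replicates 2 and 3. In TNF-α replicates 2 and 3, 14.9% and 13.8% of the reads fell in genes shorter than 2 kb, against 8.40% to 8.52% in the other 4 libraries, and 16.6% and 17.9% fell in genes longer than 8 kb, against 28.8% to 29.1%. GC content and gene length together accounted for 34.1% and 33.0% of the variance of the log2 ratios to the NC mean in these 2 libraries and for 1.27% in TNF-α replicate 1. Because metallothionein genes are short and the other members long, the part fitted by GC content and length, or the value corrected for it, is given where each detected member is described. The cause of these shifts was not tested. The treatment was visible in every TNF-α library, where the NF-kB target NFKBIA stood at 75.3, 118 and 112 FPKM against 13.0 to 14.4 FPKM in the NC group (log2 fold change 2.79, limma adjusted p = 0.00415). TNFAIP3, also set as a check of the treatment, stood at 57.6, 18.9 and 26.8 FPKM against 3.44 to 4.22 FPKM (log2 fold change 2.70, limma adjusted p = 0.0421). TNF-α replicate 1 was thus the lowest TNF-α library for NFKBIA and the highest for TNFAIP3. Of 8 astrocyte and glioma markers 7 passed the filter on low values, while S100B did not. Of 18 markers of neurons, oligodendrocytes, immune, endothelial, fibroblast and epithelial cells, 16 were below 1 FPKM in every library, the oligodendrocyte marker MOG and the leukocyte marker PTPRC had no reads, and the sum of all 18 ranged from 2.41 to 3.20 FPKM under NC and from 2.28 to 2.98 FPKM under TNF-α. In bulk RNA, fewer expressing cells and less RNA per cell cannot be told apart.

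To determine whether TNF-α altered these genes, log2(FPKM + 1) was compared between the groups with limma over all 12136 genes with at least 1 FPKM in at least 3 libraries. Of the 10 genes, 8 passed this filter and 2, MT1G and MT1M, had no reads. The 4 detected metallothioneins had higher mean values in the TNF-α group, and MTF1, SLC30A1 and SLC39A8 had lower ones, but no member reached an adjusted p under 0.05. Across all tested genes 1.01% passed this threshold (123 genes, of which 87 were higher). The unadjusted p was under 0.05 for 3 members of 8 (MT2A, MT1F and MT1X), where the background was 24.2%. With limma-voom on the recovered reads, no member passed the adjusted threshold either, against 0.634% of all tested genes. Of the 8 members 2 had an unadjusted p under 0.05 in that fit, where 3431 of all 12136 genes did. In FPKM the groups did not overlap for 3 members of 8 (MT2A, MT1F and SLC39A14), against a background of 30.1%. The median log2 fold change was 1.04 for the 4 detected metallothioneins and -0.33 for MTF1 and the 3 transporters. Over all 8 it was 0.64, compared with 0.04 for all tested genes, but it was 0.22 on the TPM scale (all genes -0.42). Over the 6 members left by a filter of at least 5 FPKM it was 0.12 (all genes 0.15). With TNF-α replicate 1 as the only TNF-α library it was 0.19 (all genes -0.007).

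**Figure D1:**
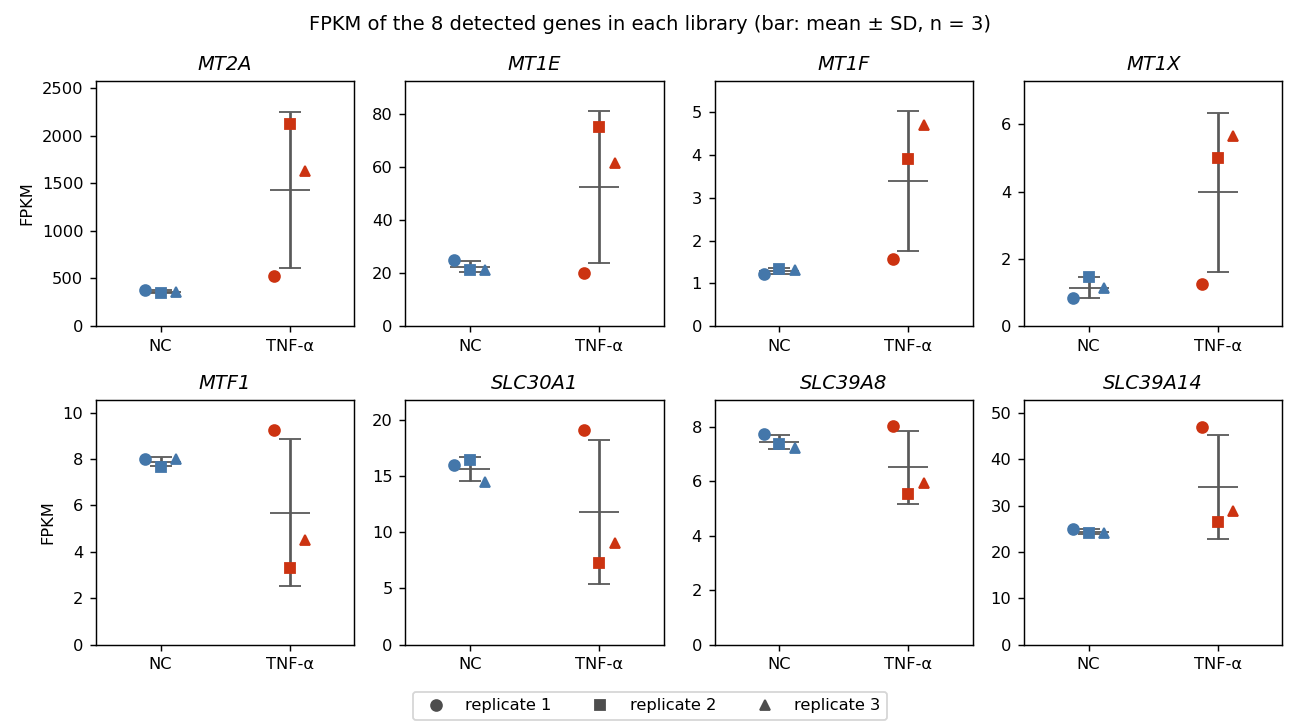
FPKM of the 8 detected genes in each library, 1 panel per gene, with the vertical axis starting at 0 and bars giving the mean ± SD (n = 3). The NC libraries lie close together except for MT1X. TNF-α replicate 1 lies near or above the NC level, and just below every NC library for MT1E. Replicates 2 and 3 lie apart from replicate 1, far above NC for the metallothioneins and below NC for MTF1, SLC30A1 and SLC39A8.

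MT2A, the most abundant metallothionein of many human cells, measured 375, 344 and 356 FPKM in NC replicates 1 to 3 and 531, 2126 and 1635 FPKM in TNF-α replicates 1 to 3. All 3 TNF-α libraries were above all 3 NC libraries, by 1.48-fold in replicate 1 and by 5.93-fold and 4.56-fold in replicates 2 and 3 relative to the NC mean. MT2A had a log2 fold change of 1.77 (SE 0.52, 95% interval 0.51 to 3.03), and the limma adjusted p was 0.195. These values rested on 14661 to 71591 reads per library. The fit on GC content and length gave -0.03, 0.63 and 0.52 of the log2 difference from NC in TNF-α replicates 1 to 3, and 0.60, 1.93 and 1.67 remained once these parts were subtracted. With this correction the log2 fold change was 1.40 and the limma adjusted p was 0.105. With limma-voom on the recovered reads, scaled by all reads in genes, the log2 fold change was 1.51.

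MT1E, the second metallothionein by level, measured 24.9, 21.0 and 21.2 FPKM under NC and 20.1, 75.1 and 61.6 FPKM under TNF-α. TNF-α replicate 1 was below every NC library and the other 2 were about 3 times the NC level (3.36-fold and 2.75-fold), so the groups overlapped. The log2 fold change was 1.00 (SE 0.48, 95% interval -0.16 to 2.15, limma adjusted p = 0.197). After correction for GC content and length the differences from NC were -0.11, 1.12 and 0.95.

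MT1F, a low-level member of the cluster, measured 1.22, 1.34 and 1.302 FPKM under NC and 1.57, 3.90 and 4.71 FPKM under TNF-α. Every TNF-α library was above every NC library, replicate 1 by a small margin. For MT1F the log2 fold change was 0.86 (SE 0.30, limma adjusted p = 0.195). Fewer reads stood behind it, 79 to 83 per NC library and 95 to 216 per TNF-α library. Its GC and length term was the largest of the 4 metallothioneins, at 0.85 and 0.70 in TNF-α replicates 2 and 3, which left 0.21, 0.25 and 0.62 in the 3 TNF-α libraries.

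MT1X, at the end of the cluster, measured 0.843, 1.46 and 1.12 FPKM under NC and 1.26, 5.00 and 5.67 FPKM under TNF-α. TNF-α replicate 1 lay within the NC range and the other 2 above it. The log2 fold change was 1.08 (SE 0.42, limma adjusted p = 0.195), and the corrected differences were 0.12, 0.86 and 1.12. Of its exon bases 18.1% are shared with another annotated gene, AC026461.1. Of the 100-base stretches of MT1X transcripts 11.3% also occur in another gene in the same orientation, most often in AC026461.1. Reads there therefore cannot be assigned to MT1X with certainty.

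MT1G and MT1M, whose products also bind zinc, had 0 reads in all 6 libraries. A count of 0 allows up to 3 reads, which corresponds to 0.111 to 0.165 FPKM for MT1G and 0.0881 to 0.131 FPKM for MT1M, depending on the library. No fold change was therefore given for either gene. Metallothionein genes resemble each other, and the share of 50-base words that occur in another gene was 16.5% for MT1G and 9.90% for MT1M, against 18.3% for MT1X, 7.10% for MT1E, 3.0% for MT2A and 1.20% for MT1F. At 100 bases no word of these genes was shared except for MT1X (11.3%). Reads from shared stretches may have been left out or assigned to another gene.

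Summed over the 6 metallothionein genes, the level was 402, 368 and 379 FPKM under NC and 554, 2210 and 1707 FPKM under TNF-α. The mean was 383 ± 17.3 FPKM (SD, n = 3) under NC and 1490 ± 849 FPKM under TNF-α, a ratio of 3.89. TNF-α replicate 1 alone gave a ratio of 1.45, so the size of the ratio came mainly from the other 2 TNF-α libraries. On the TPM scale, which fixes the total of each library, the ratio was 2.50. The sum was not corrected for GC content and length. MT2A made up 93.3% to 93.8% of the summed FPKM in the NC group and 95.8% to 96.2% in the TNF-α group, and the ranges did not overlap. The share of MT1E was 5.58% to 6.20% in the NC group and 3.40% to 3.63% in the TNF-α group.

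Ratios between genes of the same library do not depend on how that library was scaled, and 8 such ratios were computed after the values had been seen. The share of other gene pairs whose ratios do not overlap between the groups was not computed, so the 8 ratios have no background. The ratio of MT2A to MT1E was 15.05, 16.4 and 16.8 in the NC group and 26.4, 28.3 and 26.5 in the TNF-α group. All 3 TNF-α libraries, replicate 1 included, stood above the NC libraries and close to each other. The mean ratio was 16.1 ± 0.906 (SD, n = 3) in the NC group and 27.1 ± 1.06 in the TNF-α group, 1.69-fold on the log scale, with a two-sided exact permutation p of 0.1, the smallest that 3 against 3 libraries allow, and 0.16 after Benjamini-Hochberg adjustment over the 8 ratios. These 2 genes are of similar length (1299 and 1052 bases) and GC content (53.9% and 53.5%), and their fitted GC and length terms were within 0.05 of each other on the log2 scale in each TNF-α library. The ratio of MT2A to MT1F was also higher in each TNF-α library (1.44-fold), whereas the ratios of MT2A to MT1X, MT1E to MT1F and MT1E to MT1X overlapped between the groups.

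**Figure D2:**
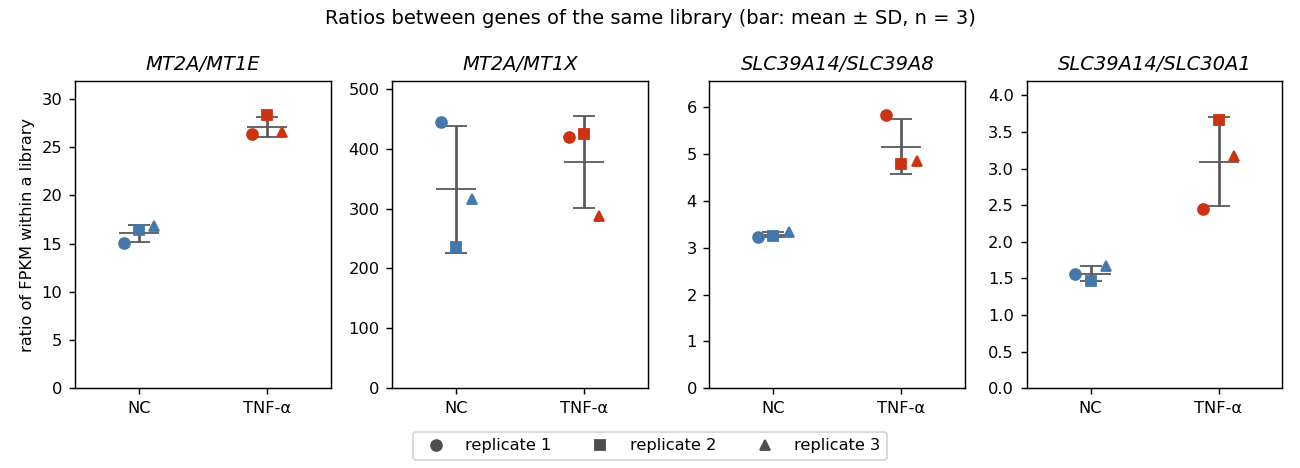
Ratio of the FPKM of a pair of genes within each library for 4 of the 8 ratios, with axes starting at 0 and bars giving the mean ± SD (n = 3). The ratio of MT2A to MT1E lies at 15.05 to 16.8 in the NC group and at 26.4 to 28.3 in the TNF-α group, the ratio of MT2A to MT1X overlaps between the groups, and SLC39A14 is higher relative to SLC39A8 and SLC30A1 in every TNF-α library.

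MTF1, the zinc-sensing activator of metallothionein genes, measured 8.02, 7.68 and 7.99 FPKM under NC and 9.27, 3.30 and 4.49 FPKM under TNF-α. Replicate 1 was above every NC library and replicates 2 and 3 were below every one, so no common direction was present. MTF1 had a log2 fold change of -0.51 (SE 0.32, 95% interval -1.28 to 0.25, limma adjusted p = 0.251). The fitted terms of GC content and length were -0.46 and -0.42 in TNF-α replicates 2 and 3, and the corrected differences were 0.21, -0.59 and -0.27.

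SLC30A1, the zinc exporter of the plasma membrane, showed the same arrangement of libraries, with 16.0, 16.4 and 14.4 FPKM under NC and 19.1, 7.23 and 9.07 FPKM under TNF-α. TNF-α replicate 1 was the highest of the 6 libraries and TNF-α replicates 2 and 3 were the lowest. The log2 fold change was -0.48 (SE 0.33, 95% interval -1.29 to 0.32, limma adjusted p = 0.290), and -0.14 after the correction for GC content and length.

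SLC39A8 measured 7.71, 7.37 and 7.21 FPKM under NC and 8.03, 5.53 and 5.95 FPKM under TNF-α. Its libraries were again ordered with TNF-α replicate 1 highest and replicates 2 and 3 lowest. The log2 fold change was -0.18 (SE 0.16, 95% interval -0.56 to 0.20, limma adjusted p = 0.383). The fitted terms of -0.41 and -0.37 were about as large as the differences in replicates 2 and 3, and the corrected differences were 0.09, 0.04 and 0.09, with a corrected log2 fold change of 0.071.

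SLC39A14 (ENSG00000104635), the importer of zinc and non-transferrin iron, lies on the plus strand of chromosome 8 at 22367249 to 22434129. It measured 25.0, 24.0 and 24.1 FPKM under NC and 46.9, 26.4 and 28.8 FPKM under TNF-α. In FPKM every TNF-α library was above every NC library, and here replicate 1 was the highest (1.92-fold the NC mean, against 1.09-fold and 1.18-fold). The reads, not scaled for depth, were 6263, 5466 and 5378 under NC and 10462, 4759 and 4860 under TNF-α. In reads TNF-α replicates 2 and 3 were thus below the NC libraries. With limma-voom on the recovered reads the log2 fold change was 0.17 (limma-voom adjusted p = 0.691). SLC39A14 had a log2 fold change of 0.42 (SE 0.23, 95% interval -0.14 to 0.98), with a limma adjusted p of 0.217. Its fitted terms of GC content and length were 0.01, -0.30 and -0.28, and 0.91, 0.42 and 0.51 remained, which gave a corrected log2 fold change of 0.61 (limma adjusted p = 0.0957). On the TPM scale, where the median of all tested genes was -0.42, the log2 fold change of SLC39A14 was -0.066.

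The ratio of SLC39A14 to SLC39A8, importers of similar gene length (6942 and 6480 bases), was 3.24, 3.26 and 3.35 in the NC group and 5.84, 4.79 and 4.85 in the TNF-α group. It was 1.57-fold higher with no overlap, again at the smallest possible exact permutation p of 0.1 (adjusted 0.16). SLC39A14 was likewise higher relative to SLC30A1 (1.95-fold) and to MTF1 (2.07-fold) in every TNF-α library. These ratios share SLC39A14 as numerator, have no background over other gene pairs and were not corrected for GC content and length.

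**Figure D3:**
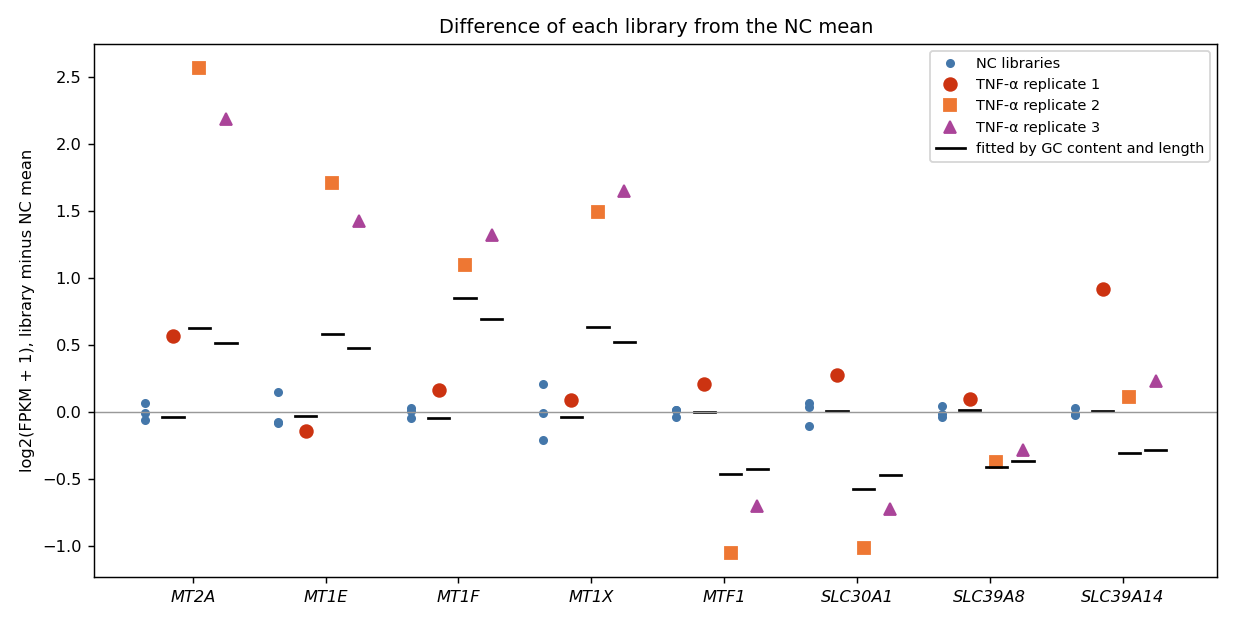
Difference of each library from the NC mean in log2(FPKM + 1) for the 8 detected genes, with small circles for NC libraries, larger symbols for the TNF-α libraries and horizontal dashes for the part fitted by GC content and gene length in each TNF-α library. MT2A in replicates 2 and 3 lies well above its dashes, SLC39A8 lies close to them, and in replicate 1, where the dashes are near 0, MT2A and SLC39A14 have the largest differences.

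Since TNF-α replicates 2 and 3 differed from the other libraries in the read shares given above, the comparison was repeated after seeing the data with replicate 1 as the only TNF-α library, under the assumption that it varied like the NC libraries. Of all tested genes 6.03% passed the threshold, and 2 of the 8 members did. SLC39A14 was higher by 0.92 on the log2 scale (limma adjusted p = 0.00167) and MT2A by 0.57 (limma adjusted p = 0.00930). MT1E had a log2 difference of -0.14, MTF1 of 0.21, SLC30A1 of 0.28 and SLC39A8 of 0.10, each opposite in sign to its value over all 6 libraries and none past the threshold. A single library gives no replicate check of the treatment.

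Without TNF-α replicate 1, by contrast, 7 of the 8 members passed the threshold, all but SLC39A14 (log2 fold change 0.17, limma adjusted p = 0.0531). The background was then 79.4% of all tested genes, so this share is near the background. MT2A was 2.38, MT1X 1.57, MT1E 1.57 and MT1F 1.21 on the log2 scale, and MTF1 and SLC30A1 were both -0.87.

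**Figure D4:**
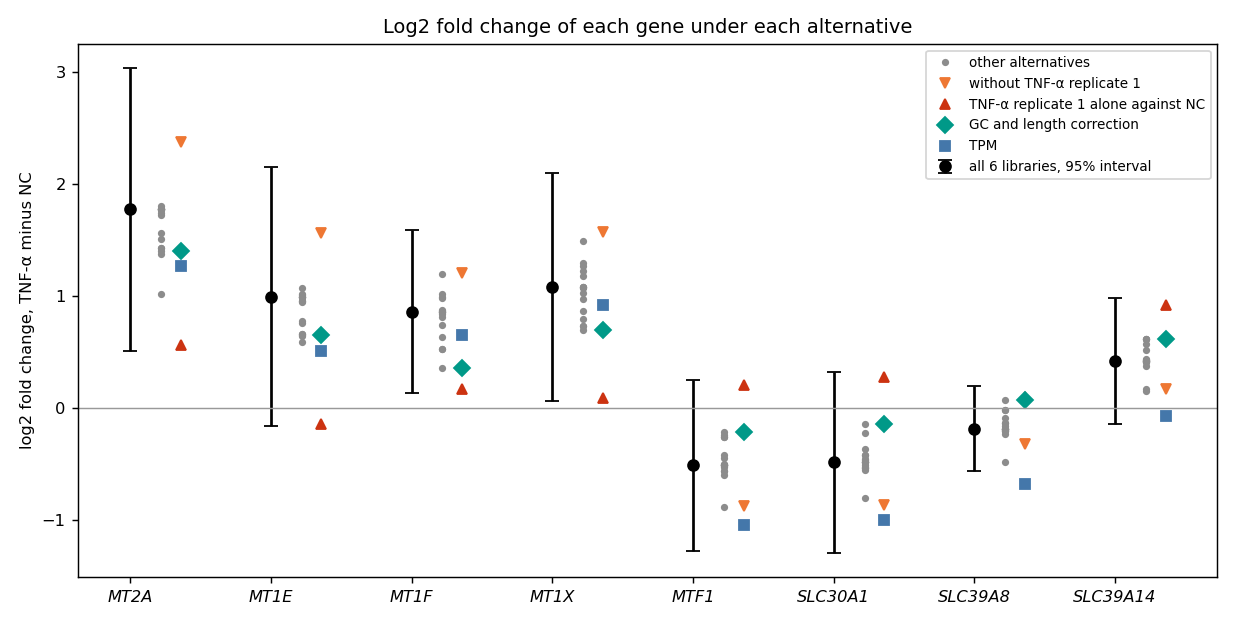
Log2 fold change of each detected gene (TNF-α minus NC) over all 6 libraries with its 95% interval (black) and under each alternative. MT2A, MT1F and MT1X stay above 0 under every alternative, MT1E, MTF1, SLC30A1 and SLC39A8 cross 0 with TNF-α replicate 1 alone, SLC39A8 also does with the GC and length correction, and SLC39A14 crosses 0 on the TPM scale.

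In the NC group, where FPKM allows levels to be compared per length, MT2A was highest at a mean of 358 ± 15.5 FPKM (SD, n = 3). SLC39A14 (24.4 ± 0.525) and MT1E (22.4 ± 2.19) followed with overlapping ranges, then SLC30A1 (15.6 ± 1.05), then MTF1 (7.90 ± 0.192) and SLC39A8 (7.43 ± 0.258), whose ranges overlapped. MT1F (1.29 ± 0.0635) and MT1X (1.14 ± 0.310) overlapped and came last among the genes with reads. The gene length behind these levels covers all annotated exons, which for MT2A is 1299 bases where its longest transcript has 903.

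Across the 6 libraries the 4 metallothioneins moved together, with Pearson's r of 0.95 to 0.99 between pairs in log2(FPKM + 1), and so did MTF1, SLC30A1 and SLC39A8, with r of 0.99 for each pair. The points share the difference between TNF-α replicates 2 and 3 and the other libraries, and 2834 genes had an r above 0.95 with MT2A, so these values are a description only. The genes most like MT2A were PFDN1, AKR1B1, CHMP4B, GLIS2 and TBX2 (r of at least 0.999). SLC39A8 was most like TXNRD1, IFI44L, ENTPD7, CDK17 and PBX3. SLC39A14 had a pattern shared by few genes, with 29 above 0.95, and was most like ADAMTS6, TRAF3, GBP1, NFE2L3 and FILIP1L (r of 0.98 to 0.99).

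Other genes of metal handling were described from lists written by hand, with values not corrected for GC content and length except where stated. Of 15 other metallothionein genes and pseudogenes, 9 had no reads in any library and only MT2P1, a pseudogene of MT2A, was tested. It measured 1.66, 1.83 and 1.70 FPKM under NC and 2.89, 7.80 and 5.85 FPKM under TNF-α, with no overlap, against a background of 30.1%. The log2 fold change of MT2P1 was 1.17 (limma adjusted p = 0.168), and reads of MT2A could have been counted to it. Of 9 other SLC30 zinc exporters 5 were tested and all 5 had negative log2 fold changes over the 6 libraries (median -0.36), none past the threshold. In TNF-α replicate 1 the median difference from NC was 0.03, against -0.52 and -0.46 in replicates 2 and 3. SLC30A5, which loads zinc into the secretory pathway, was the only one whose groups did not overlap, at 10.2 to 12.6 FPKM under NC and 8.03 to 9.93 FPKM under TNF-α, and 1 gene of 5 compares with a background of 30.1%.

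Of 12 other SLC39 zinc importers 7 were tested, 4 with positive and 3 with negative log2 fold changes (median 0.12) and none past the threshold. SLC39A13, which releases zinc from intracellular vesicles, measured 15.5, 13.7 and 16.9 FPKM under NC and 19.0, 39.8 and 34.5 FPKM under TNF-α without overlap (log2 fold change 0.91, limma adjusted p = 0.195). It was the only 1 of the 7 without overlap, where the background was 30.1%. SLC39A3 had a similar log2 fold change of 0.90, but its groups overlapped. SLC39A10, a plasma membrane importer, stood at 7.58, 7.69 and 7.44 FPKM under NC and at 8.27, 2.40 and 2.67 FPKM under TNF-α. The groups overlapped, since TNF-α replicate 1 was the highest library.

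Of 22 genes of copper and iron handling 15 were tested, 9 with positive and 6 with negative log2 fold changes (median 0.36), and none passed the threshold. The largest positive log2 fold changes were 1.18 for ATOX1, 0.92 for COX17 and 0.91 for FTH1. ATP7A (-0.82) and IREB2 (-0.77) had the most negative ones. Unadjusted limma p-values were under 0.05 for 5 of the genes with positive and 3 of those with negative changes, where the share over all tested genes was 24.2%. Among them was FTH1, the heavy chain of the iron store ferritin, at 239, 237 and 250 FPKM under NC and 285, 617 and 540 FPKM under TNF-α. TFRC, the transferrin receptor, stood at 84.6, 87.5 and 81.1 FPKM under NC and at 77.2, 53.8 and 46.9 FPKM under TNF-α. SLC25A37, the mitochondrial iron importer, measured 13.8, 13.6 and 14.0 FPKM under NC and 20.0, 17.3 and 16.7 FPKM under TNF-α. After correction for GC content and length SLC25A37 was past the threshold (log2 fold change 0.54, limma adjusted p = 0.0321). It was the only one of the 28 tested genes of these lists to pass, where 2.25% of all tested genes did. With TNF-α replicate 1 as the only TNF-α library, the log2 difference from NC was 0.50 for SLC25A37, 0.51 for MT2P1 and -0.37 for FTL, the ferritin light chain. MT2P1 rested on 17 reads in that library, against 10 to 11 in the NC libraries. FTL turned direction with the other TNF-α libraries, since it stood at 1679, 1702 and 1682 FPKM under NC and at 1309, 5010 and 3668 FPKM under TNF-α, and its log2 fold change over all 6 libraries was 0.77 (limma adjusted p = 0.276).

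**Figure D5:**
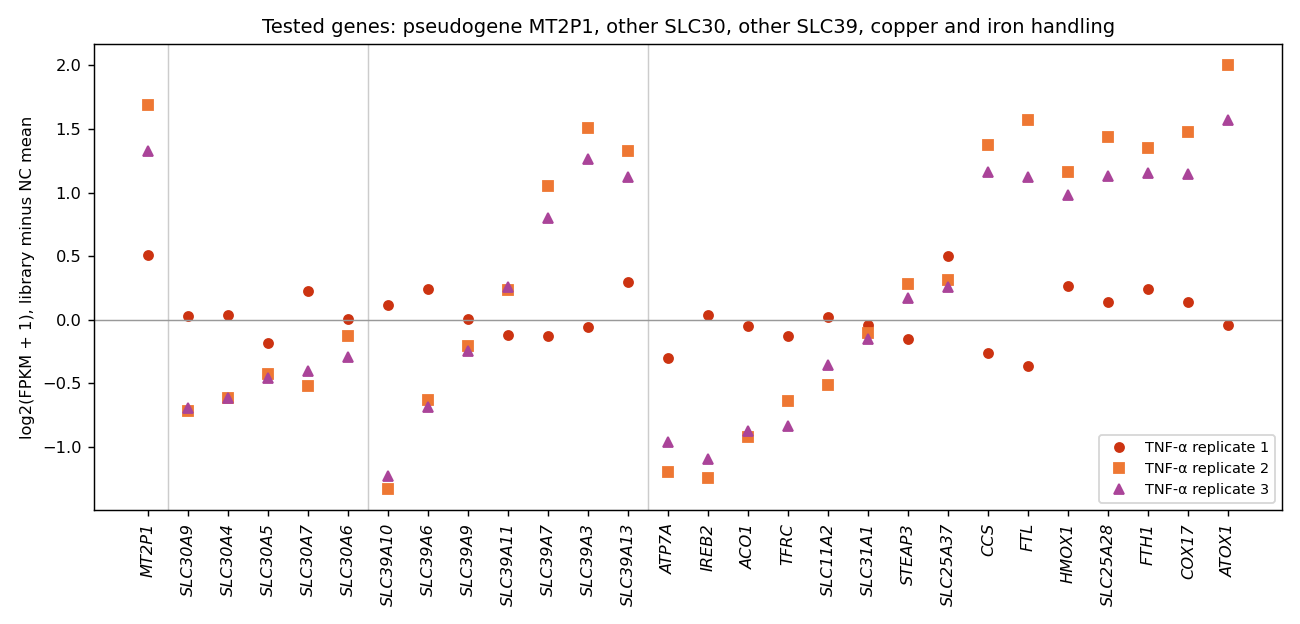
Difference of each TNF-α library from the NC mean in log2(FPKM + 1) for the 28 tested genes of the other lists, grouped from left to right as the pseudogene MT2P1, the SLC30 exporters, the SLC39 importers and copper and iron handling. TNF-α replicate 1 lies near 0 for most genes, while replicates 2 and 3 lie together, below 0 for the exporters and on either side of 0 for the importers.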

How the data were processed

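RNA was poly(A)-selected and sequenced in 3 NC and 3 TNF-α libraries, grouped by sample title. The authors deposited FPKM per gene, fragments scaled by gene length and a library size set for each library, without pooling. The submitters' processing notes name HISAT2 2.0.5, StringTie 1.3.3b, featureCounts 1.5.0 and GATK 3.7, and edgeR and DESeq2 without a version. The role of each tool is not given in the sources used here. The use of strand is not given in the sources used here. All 58735 genes matched GENCODE release 29 (GRCh38) in identifier, position and merged exon length. A further 6 columns of per-sample values were not used here.

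Multiplying FPKM by gene length gave whole reads in 100% of values (tolerance 0.01) after division by a constant of the library. Limits from reads cover counting error only. A gene was tested where 3 or more libraries had an FPKM of 1 or more, as log2(FPKM + 1), so fold changes of low genes are understated, with limma 3.58.1 in R 4.3.3 (eBayes with trend, two-sided, Benjamini-Hochberg over 12136 genes, threshold 0.05). All adjusted p-values for genes are limma's. The procedure was also run on simulated reads that had no shift by GC content or length between libraries. That run cannot show how the fit behaves under the shifts of TNF-α replicates 2 and 3. GC content (of the longest transcript) and gene length were fitted with natural splines (5 degrees of freedom) plus interactions, and the fit was subtracted. Tables and plots used Python 3.11.15, pandas 2.3.3, numpy 2.4.6 and matplotlib 3.10.9.

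The members and lists were chosen with earlier results of these data known. All 10 members were named. Of the other lists, every gene past the threshold was to be named, and the other genes named from them were chosen after their values were seen. Alternatives were other pseudocounts, filters and scalings, a replicate block, limma-voom and leaving out each library. The GC correction, TNF-α replicate 1 alone and the within-library ratios were added after seeing the data.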

Additional observations from a re-analysis of the deposited data

How the results depend on the processing

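Of 166 refits of single members, 150 kept the direction and the side of the threshold. The 7 that reversed were, with TNF-α replicate 1 alone, MT1E (-0.14), MTF1 (0.21), SLC30A1 (0.28) and SLC39A8 (0.10), with the GC and length correction SLC39A8 (0.071, also with the replicate block), and on the TPM scale SLC39A14 (-0.066). The other 9 passed the threshold without TNF-α replicate 1 or with it alone.

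The 123 genes past the threshold became 58 with a filter of FPKM above 0, 79 with a filter of at least 5 FPKM, 58 with TPM, 185 with quantile normalization, 273 with the GC and length correction, 77 with limma-voom and 732 with TNF-α replicate 1 alone. Leaving out each library in turn gave 10 to 9630 genes, the highest without TNF-α replicate 1 and at most 42 without any other library, and 0 to 7 members and 0 to 25 other genes of metal handling, in each case above 0 for the lists only without TNF-α replicate 1. TNF-α replicate 1 alone gave 2 members and 3 other genes of metal handling, and the GC and length correction gave 1 such gene. The median log2 fold change of the members was 0.12 with the filter of at least 5 FPKM, which left 6 members (all genes 0.15). It was 0.22 with TPM (all genes -0.42) and 0.19 with TNF-α replicate 1 alone (all genes -0.007). The summed metallothionein ratio was 1.45 with TNF-α replicate 1 alone. The cause of these shifts was not tested.

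Same-numbered libraries deviated from their group means with r of -0.01, -0.18 and 0.12. The TNF-α deviations hold the difference of replicate 1 from the other TNF-α libraries, so these values cannot show whether the libraries were paired. In the main fit the replicate numbers were not taken to pair the libraries. With the replicate number as a block 24 genes passed the threshold, 38 with the length correction and 43 with the GC and length correction, and no member did. Depth limits MT1G and MT1M to the 3 reads that a count of 0 allows, and MT1F and MT1X rested on the fewest reads of the tested members.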
